A study of Mus musculus with 8 samples.

Results

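The transcripts described here are those with at least 1 m6A peak in both m6A libraries of growing C2C12 myoblasts, an immortalized mouse muscle precursor line. A gene symbol was taken as a member when it had a line in both peak lists of cells in growth medium (GM), and its value in each list was its highest fold enrichment, the ratio of immunoprecipitated (IP) RNA over input RNA in a peak. By this rule 6430 of the 8308 symbols with a peak in either GM list were members, out of 9153 symbols with a peak in any of the 4 lists of the study. The GM cells, which carry no transgene or treatment, were sampled at 50% confluence in 10% fetal bovine serum, and the cells used for comparison (3d DM) were switched to 2% horse serum at over 90% confluence and sampled 3 days later. Both states grew on collagen-coated dishes, and each had 2 IP and 2 input libraries. A single line was used, and the labels do not say whether the 2 replicates were separate cultures, so the spread between them may be technical.

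m6A is a methyl mark on adenosines inside messenger RNA. It is written by a complex built on METTL3 and METTL14 with adaptors such as WTAP, VIRMA, ZC3H13 and RBM15, removed by FTO and ALKBH5, and read by the YTH family of RNA-binding proteins, several of which shorten the life of the transcripts they bind. The mark sits in a sequence context named DRACH, of which GGACT is a frequent form, and it is known to gather in long internal exons and around stop codons. In stem and precursor cells it is best known on transcripts of transcription regulators, and in muscle precursors it has been studied in the passage from growth to differentiation.

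The sequences below were read from the mm10 genome (RefSeq GRCm38.p6, transcript strand, 5′ to 3′) at peaks of the most enriched members, and each is shown because a result below turns on it. The first pair are whole coding-sequence (CDS) peaks of Zfp408 (chr2:91645363-91645662, minus strand) and Setd1b (chr5:123160594-123160863, plus strand), with any GGACT in capitals.
Zfp408, GM replicate 1: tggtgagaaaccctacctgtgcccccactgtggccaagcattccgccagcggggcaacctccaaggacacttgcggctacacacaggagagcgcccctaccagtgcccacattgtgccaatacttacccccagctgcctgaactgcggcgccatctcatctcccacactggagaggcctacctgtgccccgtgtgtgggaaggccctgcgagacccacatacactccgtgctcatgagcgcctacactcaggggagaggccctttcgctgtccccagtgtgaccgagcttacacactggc
Setd1b, GM replicate 2: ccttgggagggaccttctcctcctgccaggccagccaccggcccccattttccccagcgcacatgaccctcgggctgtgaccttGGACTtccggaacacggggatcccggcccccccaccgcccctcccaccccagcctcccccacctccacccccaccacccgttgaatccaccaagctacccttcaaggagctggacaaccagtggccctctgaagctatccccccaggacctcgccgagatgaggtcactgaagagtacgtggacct
The Zfp408 peak held 5 DRACH words and no GGACT, and the Setd1b peak held 8 DRACH words, of which 1 was GGACT.

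Short stretches around a GGACT (in capitals) lie in the part shared by both libraries' strongest peaks of Zdhhc20 (chr14:57834869-57834893, minus strand) and Sema4b (chr7:80225903-80225927, plus strand).
Zdhhc20: gtgcacaataGGACTgtggagaagg
Sema4b: cccagttcccGGACTtctccagcct
The next 9 stretches, also from the shared part of both libraries' strongest peaks, are shown because they are nearly the same in 9 different genes. The capitals mark 16 bases that belong to the consensus of B1, a short interspersed element present in very many copies in the mouse genome. They stand in the forward orientation in Gen1 (chr12:11239602-11239631, minus strand), Rint1 (chr5:23819688-23819717, plus strand), Zdhhc20 (chr14:57835077-57835106, minus strand) and Tstd3 (chr4:21757965-21757994, minus strand).
Gen1: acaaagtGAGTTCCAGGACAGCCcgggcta
Rint1: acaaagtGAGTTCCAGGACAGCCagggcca
Zdhhc20: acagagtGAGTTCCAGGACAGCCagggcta
Tstd3: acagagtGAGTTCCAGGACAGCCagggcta
The reverse orientation is found in Tnfrsf10b (chr14:69783649-69783678, plus strand), Gtpbp3 (chr8:71493031-71493060, plus strand), Timmdc1 (chr16:38498717-38498746, minus strand), Sema4b (chr7:80226097-80226126, plus strand) and Mrpl40 (chr16:18872144-18872173, minus strand).
Tnfrsf10b: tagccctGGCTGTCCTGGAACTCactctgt
Gtpbp3: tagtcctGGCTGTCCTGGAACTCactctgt
Timmdc1: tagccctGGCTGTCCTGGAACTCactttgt
Sema4b: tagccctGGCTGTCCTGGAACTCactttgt
Mrpl40: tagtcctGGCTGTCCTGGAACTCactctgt
In either orientation these 16 bases hold 1 DRACH word.

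The input libraries carried the markers of growing myoblasts. All 6 myoblast markers and all 4 markers of dividing cells were above the cut for expressed genes, a level of 25.1 on the normalised count scale, in both GM inputs, while 0 of 5 blood, 0 of 4 endothelial, 0 of 4 adipocyte and 0 of 4 neural markers were. Of 4 epithelial markers, Krt14 passed. Of 4 myotube markers 3 passed, and their summed level was 3510 in GM replicate 1 and 831 in GM replicate 2. The part of this difference in the folds below was not tested.

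Fold enrichment of the members was moderate, and the 2 GM libraries ranked them alike only in part. The median highest fold was 5.8 in GM replicate 1, with an interquartile range of 3.75 to 9.52, and 5.13 in GM replicate 2, with 3.35 to 8.37. The mean of these medians was 5.47 ± 0.47 (SD, n = 2). Across the 6430 members log2 folds of both libraries had a Pearson r of 0.65 and a Spearman rho of 0.67, a description across genes that share a library and are not independent. The folds of 5241 members (81.5%) lay within 2-fold of each other, and the SD of the log2 ratio between replicates was 0.79. Folds were above 10 in both libraries for 690 members (10.7%) and under 2 in both for 95 (1.48%). The strongest peaks of both libraries overlapped in 4662 members (72.5%).

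**Figure D1:**
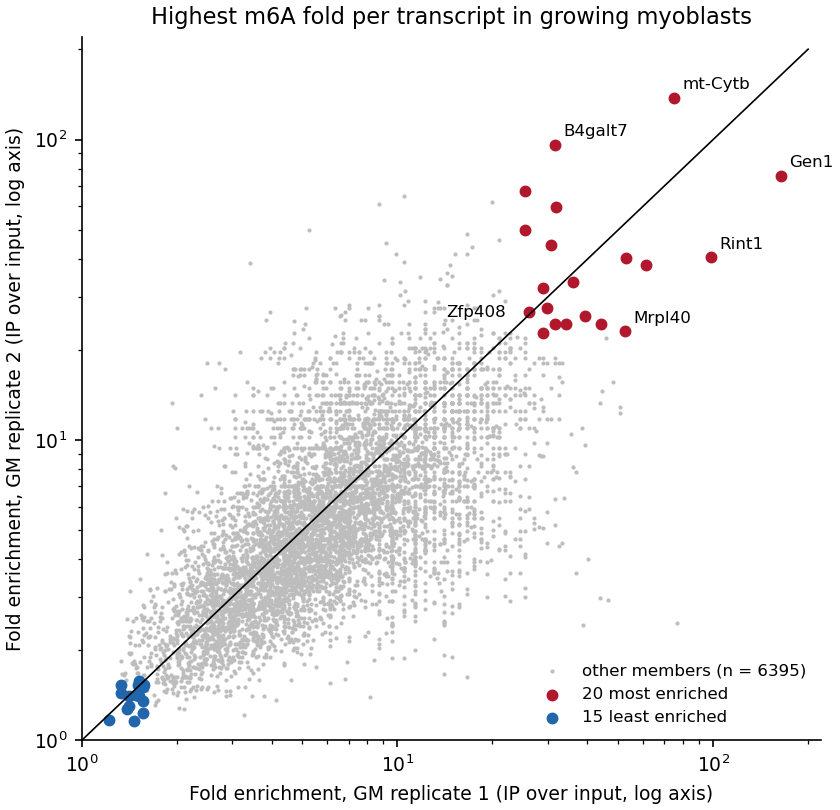
Highest fold of each member in GM replicate 1 (x axis, IP over input, log scale) and GM replicate 2 (y axis, same unit); each point is 1 transcript, red points are the 20 most and blue points the 15 least enriched, and the line marks equal folds. Most points lie along the line, with r = 0.65 on the log2 scale, and the high folds fall on a grid of repeated values.

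A list of extremes drawn from 1 library held in the other in direction but not in size. Of the 100 symbols with the highest fold in GM replicate 1, 95 had a peak in GM replicate 2, where their median fold was 13.3 against 29.7 in the library that chose them, and 82 lay above the members' median. Of the 100 lowest in GM replicate 1, 62 had a peak in GM replicate 2, with a median fold of 1.82, and 0 lay above the members' median. Chosen in GM replicate 2 and read in GM replicate 1, the highest 100 had a median of 13.6 and the lowest 100 a median of 2.00. The members are therefore ranked below by the lower of their folds for the top and by the higher for the bottom.

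High folds took few distinct values. In GM replicate 1, 568 members had a fold of at least 15, and 86.4% of these lay within 0.05 of a multiple of 0.875, where 11.4% of evenly spread values would. In GM replicate 2 the same held for 85.3% of 434 members at a step of 0.78, against 12.8%. Each step was the best fitting of many tried on these same folds, while the shares for evenly spread values are for a step fixed in advance. A pair of fold and P value that recurs at another place in the same list was found for 25.1% and 24.7% of all members in GM replicates 1 and 2, for 48 and 49 of the 100 most enriched, and for 2 and 0 of the 100 least enriched. Ranks among such members are thus ties or near ties.

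The most enriched transcript in growing myoblasts was Gen1, which encodes a nuclease that cuts Holliday junctions. Its fold was 164 in GM replicate 1 and 75.9 in GM replicate 2, from a 3′ UTR peak on chromosome 12, and 15.9 and 14.2 in 3d DM replicates 1 and 2. Both GM values stood above both 3d DM values. The ranking used GM folds only, so it favoured GM values above 3d DM values in the transcripts named here. Of the 4989 symbols with a peak in all 4 lists, 1084 had both GM folds above both 3d DM folds. The reverse held for 492 symbols. Rint1, a factor of vesicle tethering between the endoplasmic reticulum and the Golgi, followed among nuclear genes with 98.8 and 40.7 in GM against 47.1 and 40.1 in 3d DM, so the values of the states overlapped. The palmitoyltransferase transcript Zdhhc20 had 61.2 and 38.3 in GM against 48.1 and 33.0 in 3d DM. Smcr8, part of a complex that regulates autophagy, had 35.9 and 33.6 in GM against 7.64 and 13.4 in 3d DM. B4galt7, which builds the linker of glycosaminoglycan chains, had 31.5 and 96.2 in GM against 101 and 55.9 in 3d DM.

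Further members of the 20 were the antiviral zinc finger transcript Zc3hav1 (31.9 and 59.5 in GM), D17H6S53E (30.6 and 44.6), the death receptor Tnfrsf10b (28.9 and 32.1) and the mitochondrial tRNA modification enzyme Gtpbp3 (25.4 and 67.3). Lower in the ranking stood the complex I assembly factor Timmdc1 (25.4 and 50.1), the semaphorin Sema4b (44.2 and 24.4), Tstd3 (31.5 and 24.3), the mitochondrial ribosomal protein Mrpl40 (52.5 and 23.0) and the endoplasmic reticulum dehydrogenase H6pd (28.9 and 22.7). The pair AL732309.1 and AL732309.2 share exons of 1 locus with Ndor1 on the same strand, so their folds (34.1 and 24.3, 29.7 and 27.4) cannot be assigned to 1 gene. The zinc finger gene Zfp408 had the closest replicates, with 26.2 and 26.6 in GM against 5.73 and 3.09 in 3d DM. Setd1b, a histone methyltransferase of active promoters, had 39.4 and 25.8 in GM against 11.1 and 17.5 in 3d DM. The lower fold of H6pd, which closes the 20, and of the next member down was 22.7 alike.

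**Figure D2:**
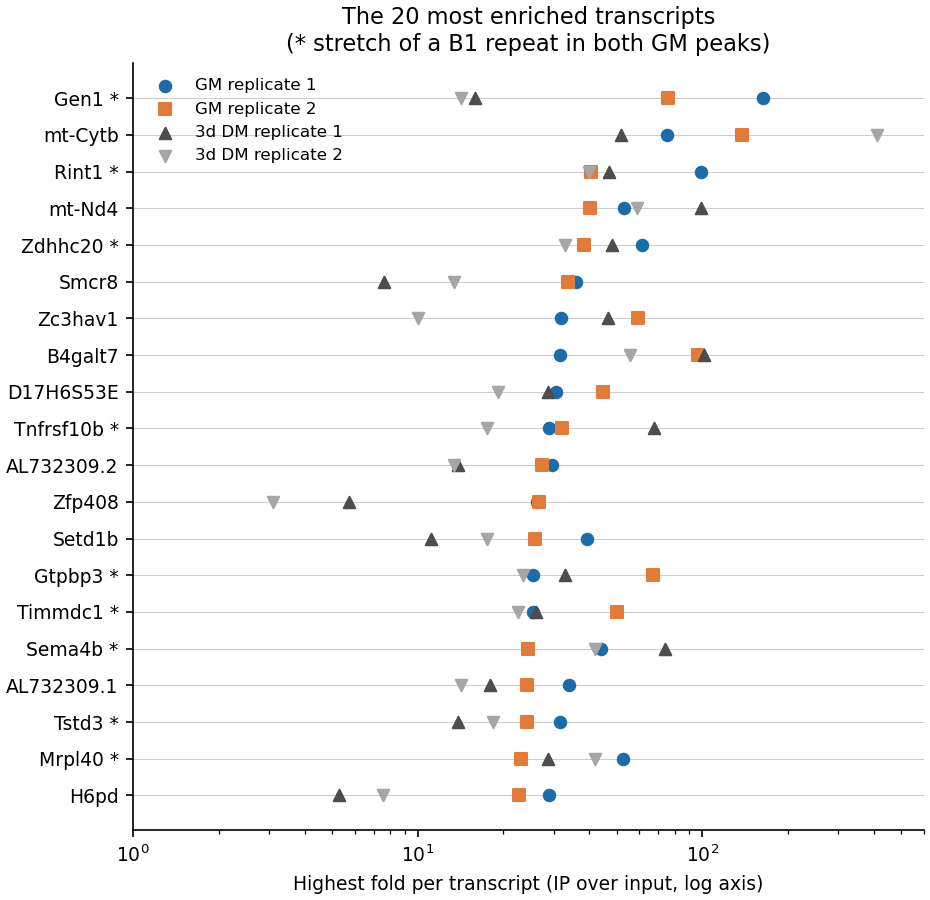
Highest fold of the 20 most enriched members (IP over input, log scale) in both GM and both 3d DM libraries, 1 point per library; an asterisk marks a B1 stretch in both GM peaks. Gen1 leads in GM with 164 and 75.9, and 9 of the 20 names carry the asterisk.

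The order was chosen on GM values, so the 3d DM lists serve as a reading the ranking did not use. All 100 of the most enriched members had a peak in 3d DM replicate 1, with a median fold of 13.5, and 87 had one in 3d DM replicate 2, with 14.2. Of all 6430 members, 5868 and 5225 had a peak in 3d DM replicates 1 and 2, with median folds of 5.02 and 5.45. Of the 100 least enriched, 57 and 81 had a peak in the 3d DM libraries, with median folds of 1.84 and 2.22. In 3d DM replicate 2 the counts at both ends were thus close to the share of all members. All these medians are over the members with a peak there, and single transcripts departed from them, as Zfp408 did with 5.73 and 3.09.

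Repeat sequence was common under the highest folds. In the genome file repeats are written in lower case, and by this mark more than 20% of the strongest peak was repeat in 12 and 14 of the 20 most enriched members (GM replicates 1 and 2), in 34 and 39 of the 100 most enriched, in 19 and 15 of the 100 least enriched and in 17.3% and 16.3% of all members. The 16 bases of B1 were read off the peaks of highly enriched members, so their count there is no independent evidence. They occurred in 9 of the 20 in both libraries (45%), in 18 and 20 of the 100 most enriched, in 0 of the 100 least enriched and in 81 (1.26%) and 98 (1.52%) of all members. In transcript windows of the same length next to the members' peaks the reverse form was in 0.34% and 0.22%, and in the peaks themselves in 0.39% and 0.61%. The forward form was in 0.86% and 0.89% of all members' peaks and was not counted in the windows. The 67 members with the stretch in both GM peaks had median folds of 15.7 and 15.5 in GM, against 15.9 and 14.2 after differentiation, and a replicate SD of the log2 ratio of 1.12. How reads that match several copies of a repeat were counted is not given in the sources used here, and the part of repeats in these folds was not tested.

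Transcripts of the mitochondrial genome had some of the highest folds, but not in both libraries for every gene. All 13 protein-coding mitochondrial genes had a peak in at least 1 of the lists and 11 were members, each encoding a subunit of the respiratory chain or of ATP synthase. mt-Cytb, the cytochrome b transcript, had folds of 75.2 and 138 in GM, against 51.9 and 412 after differentiation, and mt-Nd4, a complex I subunit, had 52.9 and 40.3 in GM. In 4 of the 11 the peak covered the whole transcript in both GM libraries. Replicates disagreed for several members of the set. The fold of mt-Co1 was 77.0 in GM replicate 1 and 2.45 in GM replicate 2, mt-Atp6 had 40.2 and 4.01, mt-Co2 had 43.7 and 2.97, and mt-Nd1 had 38.6 and 2.42. These differences are far larger than the SD of the log2 ratio of 0.79 over all members. In GM replicate 2 these 4 lay below the median of all members. Both mitochondrial members of the 20 most enriched were abundant in the input, with mt-Cytb at 60004 and 27384 on the normalised count scale.

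The least enriched members were transcripts of abundant structural, metabolic and housekeeping proteins. Anxa2, a membrane-binding annexin, had the lowest pair of folds, 1.22 in GM replicate 1 and 1.17 in GM replicate 2. The ribosomal proteins Rpl37a (1.39 and 1.27) and Rpl8 (1.46 and 1.16) and the glycolytic enzymes Aldoa (1.41 and 1.30) and Tpi1 (1.52 and 1.41) followed. The set also held the signal recognition particle subunit Srp14, the protein kinase A regulatory subunit Prkar1a, the collagen chaperone Serpinh1, the heat shock protein Hspa8, the oxidase subunit Cox6b1, the splicing regulator Ptbp1 and Krtcap2, with folds between 1.33 and 1.57. Of the cytoskeleton, the filament protein Vim had 1.56 and 1.23 and the tubulin Tuba1a had 1.56 and 1.35. Levels in the input ran from 38643 and 41760 for Vim down to 74.6 and 63.2 for Rdh5, a retinol dehydrogenase whose peak overlaps an exon of Bloc1s1 and whose folds were 1.52 and 1.58. The boundary was not sharp, since the higher fold was 1.58 for the last member of the 15 and 1.59 for the next.

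Short peaks of this group are printed beside the ones above, from which they also differ in length. The coding peaks of Ptbp1 (chr10:79863195-79863255, plus strand, fold 1.5) and Rdh5 (chr10:128920008-128920096, minus strand, fold 1.58) in GM replicate 2 were chosen for print after their values were seen, as the whole single-exon CDS peaks of at most 300 bases among the 15, and neither holds GGACT.
Ptbp1: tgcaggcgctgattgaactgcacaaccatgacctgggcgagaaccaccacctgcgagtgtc
Rdh5: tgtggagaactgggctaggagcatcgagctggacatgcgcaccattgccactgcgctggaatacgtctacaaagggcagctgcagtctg
They hold 3 and 2 DRACH words in 61 and 89 nt. The Zfp408 peak of 300 nt printed above holds no GGACT either. Among all members' peaks of up to 150 nt in GM replicate 2, GGACT was in 14.8%, so its absence does not set these peaks apart.

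By the highest fold per transcript, zinc finger transcription factors and chromatin modifiers had the highest medians of the 20 gene groups. With the mean fold over all peaks of a gene, the log2 difference of chromatin modifiers from all members was 0.25, down from 0.73, and lay below that of immediate early genes at 0.35. Of 10566 genes above the level cut in both GM inputs, 6225 (58.9%) were members. Zinc finger genes of the Zfp, Zbtb, Zscan and Zkscan families had 217 of 329 expressed genes among the members (66.0%). Their median fold was 10.1 in GM replicate 1 and 10.2 in GM replicate 2, and 158 of 221 members (71.5%) were above the overall median in both libraries, against 37.6% of all members. Zfp408 led, with Zbtb4 at 50.7 and 12.9, and Zfp207 (2.48 and 2.61) and Zfp277 (2.48 and 2.67) closed the group. Chromatin modifiers, which add, remove or read marks on histones or remodel nucleosomes, had 76 of 95 expressed genes among the members (80.0%) and median folds of 9.32 and 8.49. Of these 76, 51 (67.1%) were above the median in both libraries and 13 (17.1%) below it in both, beside 37.6% and 37.7% of all members. Setd1b and the acetyltransferase Kat6b (27.1 and 12.8) were highest, and the deacetylases Hdac3 (1.96 and 3.26) and Hdac5 (2.54 and 2.53) lowest.

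**Figure D3:**
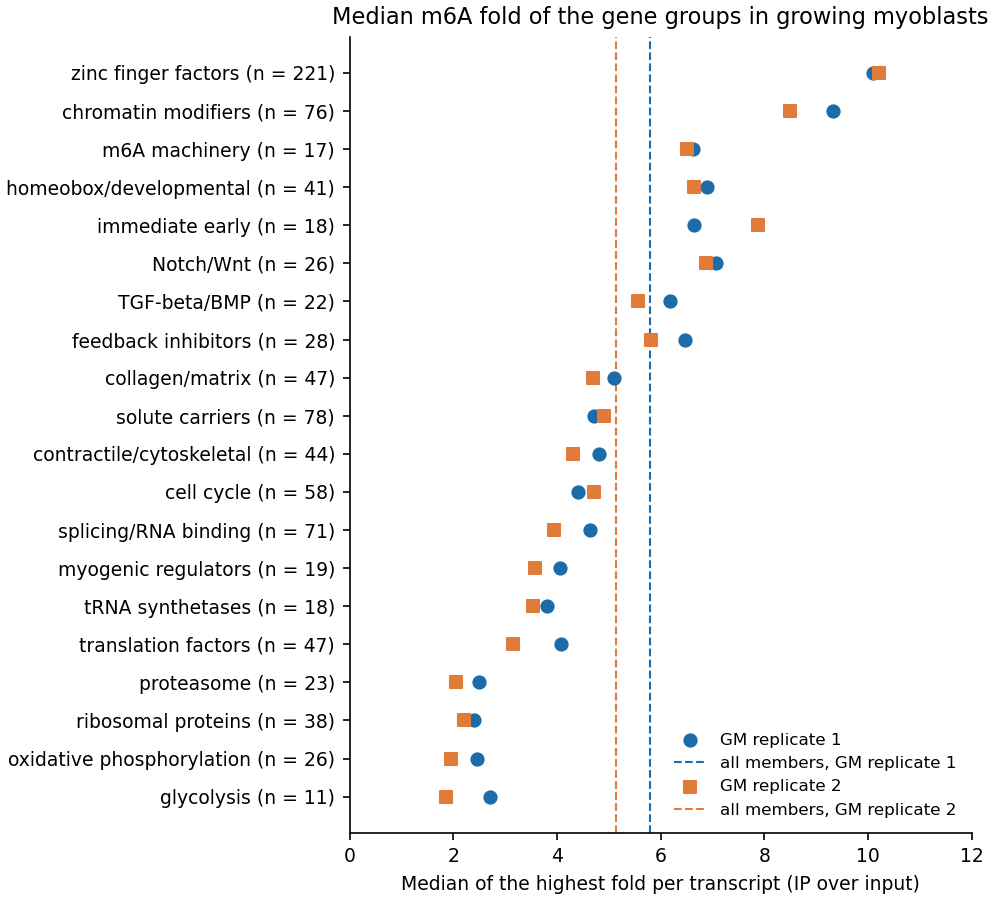
Median of the highest fold in each gene group (x axis, IP over input), 1 point for each GM library, with the number of members beside the name; dashed lines are the medians of all 6430 members. Zinc finger factors at 10.1 and 10.2 are highest, and glycolysis, oxidative phosphorylation, ribosomal proteins and proteasome lie lowest.

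Signalling and developmental regulators had medians above those of all members by smaller amounts, and 2 of these groups changed side in an alternative. The log2 difference of feedback inhibitors was 0.075, but -0.036 for peaks with at most 20% repeat, and that of TGF-beta and BMP genes was 0.085, but -0.0094 with the mean fold over all peaks of a gene. Median folds in GM replicates 1 and 2 were 6.90 and 6.65 for 41 homeobox and developmental factors, 7.08 and 6.86 for 26 Notch and Wnt genes, 6.46 and 5.8 for 28 feedback inhibitors, 6.17 and 5.57 for 22 TGF-beta and BMP genes and 6.64 and 7.88 for 18 immediate early genes. All 18 expressed immediate early genes were members, beside 58.9% of all expressed genes. Myc, the growth-promoting transcription factor, had 18.7 and 17.2, Egr2 had 16.6 and 10.2, and Ier3 was lowest with 3.22 and 3.04. Among developmental factors Irx2 (20.1 and 22.7) and Hoxc4 (17.5 and 18) were highest and Twist2 (2.05 and 2.99) lowest. The Notch coactivators Maml2 (20.1 and 11) and Maml3 (16.6 and 16.4) stood far above the Wnt effector Ctnnb1 (1.90 and 2.22). The activin subunit Inhba had 18.9 and 15.3 and the TGF-beta coreceptor Eng 15.7 and 22.7, while Smad4, the common mediator of the pathway, had 2.84 and 2.70. Of the feedback inhibitors, Socs6 had 10.2 and 13.3 and Rgs16 14.9 and 7.82, against 2.44 and 3.06 for Rgs19.

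Transcripts of the m6A machinery ranged from high folds to no peak. Of 20 expressed genes of this group 17 were members (85%, beside 58.9% of all expressed genes), with median folds of 6.62 and 6.50. Of the 17, 9 (52.9%) were above the overall median in both libraries, beside 37.6% of all members, and 7 (41.2%) were below it in both, beside 37.7%. The log2 difference of the group from all members was 0.28, and against members of the same bin of transcript length it was -0.084. Of the writer complex, Mettl3 (levels 168 and 177) and Mettl14 (199 and 232) had no peak in either GM list, whereas the adaptors Rbm15b (15 and 11.5), Rbm15 (12.5 and 10.6), Zc3h13 (11 and 14.5), Wtap (7.20 and 11.7), Cbll1 (9.80 and 7.53) and Virma (8.05 and 5.87) all did. Among readers, the nuclear Ythdc1 had 19.2 and 12.1, Ythdf3 13.9 and 6.50, Ythdf2 6.62 and 9.24 and Ythdf1 4.59 and 4.46, and Ythdc2 (levels 78.6 and 125) had no peak. Both erasers were low, Fto with 3.15 and 3.50 and Alkbh5 with 3.94 and 3.05. The other members were Hnrnpc (5.55 and 3.13), Igf2bp2 (4.18 and 3.86), Pcif1 (3.79 and 6.85), Mettl16 (3.26 and 2.23) and Hnrnpa2b1 (2.84 and 2.56). Igf2bp1 and Igf2bp3 were below the level cut in at least 1 input and had no peak. A peak that was not called does not show that the mark is absent, since the depth of these libraries is unknown.

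Myogenic regulators were mostly marked, at low folds. All 22 expressed genes of this group had a peak in at least 1 GM list and 19 were members (86.4%). Of all 10566 expressed genes, 6225 (58.9%) were members, and 1653 more had a peak in 1 GM list only. Median folds of the 19 were 4.05 and 3.57. Of the 19, 12 (63.2%) were below the overall median in both libraries, beside 37.7% of all members. Above it in both were 4 (21.1%), beside 37.6%. Myod1, the determination factor of the lineage, had 3.36 and 1.75 at levels of 1713 and 1129, and Myog, which drives terminal differentiation, had 2.33 and 1.79 at levels of 1008 and 221. Myf5 had 12.2 in GM replicate 1 and 4.26 in GM replicate 2, and Pax7, the stem cell factor, had 20.1 and 9.39 at levels of only 55.7 and 50.2.

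The cofactors of serum response factor stood beside Pax7 at the top of the group, Mkl2 with 11.4 and 14.1 and Mkl1 with 9.22 and 12.1, while Srf itself had 3.73 and 6.85. Six4 (8.12 and 6.65), Eya1 (4.05 and 6.04), Tcf4 (5.25 and 2.96), Eya4 (5.47 and 2.53), Tcf3 (4.09 and 3.96), Mef2a (4.32 and 3.39), Mef2d (3.80 and 3.57) and Id1 (3.77 and 3.34) lay in the middle. Tcf12 (3.16 and 1.89) and the differentiation inhibitors Id3 (2.32 and 2.78) and Id2 (2.26 and 1.76) were lowest beside Myod1 and Myog. Mef2c (13.1) and Eya3 (3.64) had a peak in GM replicate 1 only and Msc (7.43) in GM replicate 2 only. Myf6 had no peak at levels of 10.6 and 5.02, and Pax3, Mef2b and Eya2, with levels of practically 0, had none either.

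Housekeeping groups lay at the bottom in both libraries. Median folds were 2.40 and 2.20 for 38 ribosomal proteins, 2.46 and 1.96 for 26 genes of oxidative phosphorylation, 2.50 and 2.06 for 23 proteasome subunits and 2.70 and 1.85 for 11 glycolysis genes. The counts above the overall median in both libraries were 1, 0, 0 and 1 of these, and those below it in both were 35, 23, 21 and 10. Of all members, 37.6% were above it in both and 37.7% below it in both. Among expressed genes, 38 of 81 ribosomal protein genes (46.9%) and 25 of 72 nuclear genes of oxidative phosphorylation (34.7%) were members, beside 58.9% of all. Proteasome subunits with 23 of 35 (65.7%) and glycolysis genes with 11 of 15 (73.3%) lay above that share. Some members stood above their group in both libraries, among them Rpl23 (9.44 and 8.02), Cox7a2l (5.86 and 3.56), Psmd4 (4.14 and 5.97), Psmd7 (5.61 and 3.49) and Pfkp (6.12 and 6.65), while Ndufs4 had 7 and 2.20. tRNA synthetases (3.80 and 3.54), translation factors (4.07 and 3.15), splicing and RNA-binding factors (4.63 and 3.95), cell cycle genes (4.41 and 4.71), contractile and cytoskeletal genes (4.80 and 4.32), solute carriers (4.72 and 4.90) and collagen and matrix genes (5.10 and 4.69) came between.

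Some members of these middle groups had folds above the zinc finger median in both libraries. Tnnt3, a troponin of fast muscle, had 19.2 and 17.2 and the myosin Myh1 21 and 12.5. Rbm20, a splicing factor of striated muscle, had 12 and 20.3, and Cenpf, a kinetochore protein of dividing cells, had 10.3 and 13.3 against 1.66 and 1.77 for Cdk1, the mitotic kinase. Col8a1 (11.7 and 19.8) and Adamts5 (14.9 and 14.9) contrasted with the matrix proteins Fn1 (2.15 and 1.56) and Sparc (1.85 and 1.88), whose transcripts were far more abundant. Among solute carriers Slc8b1 had 23.6 and 15.8, and the kinase Eif2ak4 reached 18.4 and 13.3 among the translation factors. No tRNA synthetase came near these values, and Aars, one of the highest, had 6.80 and 6.26.

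Among the members, fold fell as level rose. Members were divided into 5 bins of equal size by their level in the GM inputs, and the median fold went from 8.75 in the lowest bin to 6.2, 5.69, 5.36 and 4.36 in GM replicate 1 and from 7.04 to 5.59, 5.22, 4.57 and 3.74 in GM replicate 2. Across 6373 members with a level, the Spearman rho of fold and level was -0.32 and -0.30. This is a description in which both quantities use the same input library, since the input forms the lower part of the fold. Only transcripts with a called peak in both lists are members, so low folds that were not called are missing. The 5th percentile of fold was 3.03 and 2.87 in the lowest bin and 1.76 and 1.63 in the highest. The part of this filter in the trend was not tested. Recurring pairs of fold and P made up 55.6% and 49.1% of the lowest bin and 5.02% and 6.59% of the highest. Without members that have such a pair, the median fold of the lowest bin was on average 1.61 times that of the highest, beside 1.94 times with them. The median level was 244 and 195 for the 100 most enriched, 452 and 398 for all members and 2190 and 1596 for the 100 least enriched.

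**Figure D4:**
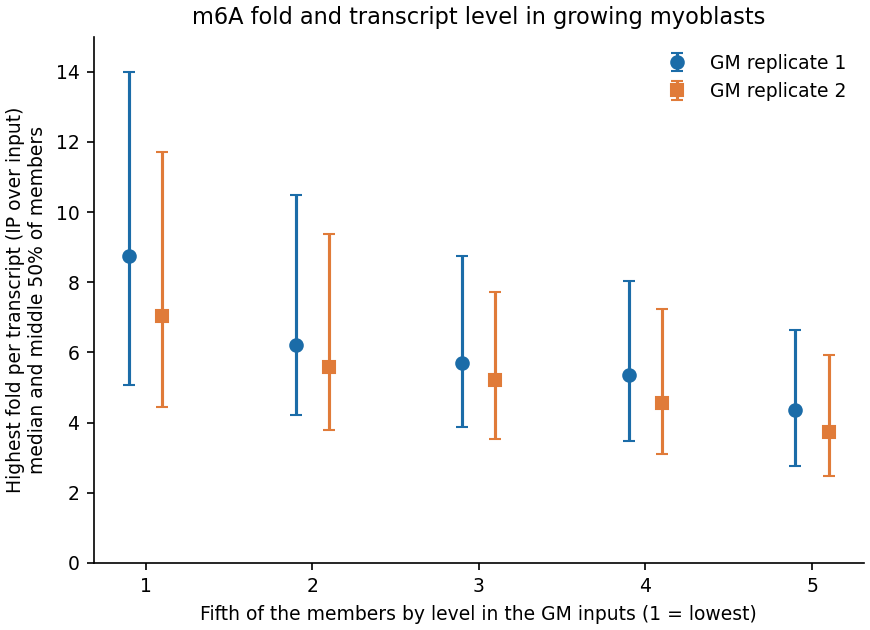
Highest fold (y axis, IP over input) in 5 bins of members by level in the GM inputs (x axis, 1 is the lowest); points are medians and bars the interquartile range, for each GM library. The median goes from 8.75 to 4.36 in GM replicate 1 and from 7.04 to 3.74 in GM replicate 2.

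The groups at both ends kept their side within bins of level, while 2 groups in the middle did not. Against members in the same level bin, the median log2 fold of zinc finger genes was still 0.49 higher and that of chromatin modifiers 0.77 higher, while glycolysis was at -0.85, oxidative phosphorylation at -1.06, ribosomal proteins at -0.82 and the proteasome at -0.79. Against all members the same groups were at 0.83, 0.73, -1.34, -1.33, -1.31 and -1.25. Splicing factors went from -0.39 to 0.046 and collagen and matrix genes from -0.15 to 0.099, and contractile genes went from -0.27 to -0.020. Length moved with fold as well, as the transcripts of the 100 most enriched had a median of 3878 and 3822 nt, those of all members 3046 and 3037 nt and those of the 100 least enriched 1558 and 1503 nt. Against members in the same bin of transcript length, zinc finger genes were at 0.73, and chromatin modifiers at 0.28 lay just below the developmental factors and the immediate early genes, both at 0.29.

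Most strongest peaks touched the coding sequence or the 3′ UTR. The label was CDS alone for 32.5% and 32.6% of members in GM replicates 1 and 2, CDS with 3′ UTR for 34% and 34.3%, 3′ UTR alone for 27.7% and 26.9% and 5′ UTR alone for 1.17% and 1.68%. Folds were somewhat higher for CDS alone, with medians of 6.56 and 5.74, than for 3′ UTR alone, with 5.07 and 4.50. They were highest for the 75 and 108 members labelled 5′ UTR alone, with 7.87 and 8.55. The 206 and 221 members labelled 5′ UTR with CDS had 5.5 and 5.48. The 95 and 72 whose peak touched every region had 5.53 and 6.04. The interquartile ranges of these labels overlapped. The midpoint lay within 200 nt of the stop codon for 33.0% and 34.6% of members, a zone that makes up 16.2% and 16.3% of their transcripts on average. For the 100 most enriched this share was 20% and 17%, beside 12.2% and 12.1% of transcript length, and for the 100 least enriched 58.6% and 54.5%, beside 29.3% and 29.6%. The strongest peak lay in a single exon in 84 and 92 of the 100 most enriched and in 61.2% and 66.0% of all members.

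**Figure D5:**
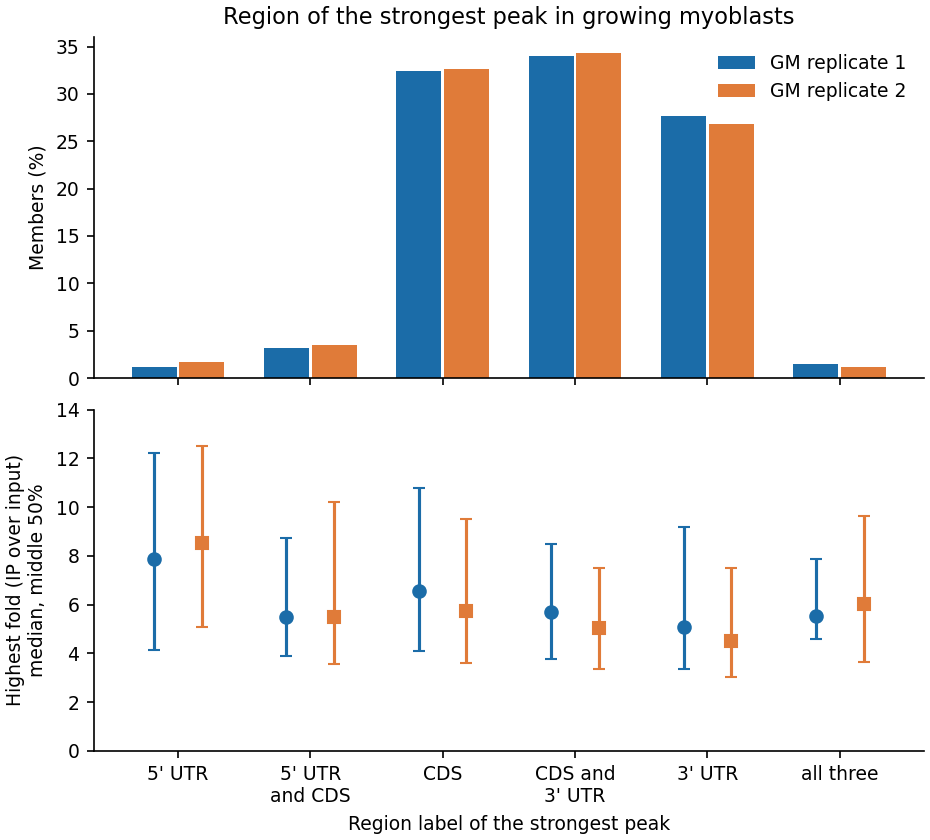
Share of members by region label of the strongest peak (top, %) and highest fold by label (bottom, IP over input, median and interquartile range) for both GM libraries. Labels with CDS or 3′ UTR hold most members, and the fold ranges of all labels overlap.

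The GGACT word was more frequent in members' peaks than beside them. It was searched on the transcript strand of 6428 strongest peaks per library, and its reverse complement AGTCC, searched on the same strand, served as contrast. GGACT was present in 44.1% and 42.6% of peaks and AGTCC in 32.5% and 31.3%. Among peaks placed in a GENCODE M21 transcript, GGACT was in 44.1% and 42.5%, and in 31.5% and 29.2% of windows of the same length next to them, some of which hold other peaks. DRACH words stood at 23.4 and 23.0 per kb in the peaks and at 20.2 per kb in those windows in both libraries. Peaks with GGACT had a median fold of 6.36 and 5.74 and those without it 5.25 and 4.66, but peaks with more GGACT were also longer.

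At the extremes the share with the word followed peak length in part. GGACT was in 46 and 52 peaks of the 100 most enriched, near the share of all members, and in 20 and 22 of the 100 least enriched, whose peaks were short with medians of 175 and 177 nt against 387 and 330 nt. Among peaks over 150 and up to 300 nt long, the share was 44.8% and 42.4% in the most enriched (29 and 33 peaks), 30.6% and 30.2% in all members and 30.6% and 27.9% in the least enriched (36 and 43 peaks). Among peaks over 300 and up to 600 nt it was 45.2% and 56.4% in the most enriched and 48.5% and 50.2% in all members, so the top did not differ in 1 direction in both libraries. Per kb the word occurred 1.48 and 1.83 times in the most enriched, 1.44 and 1.54 times in all members and 1.17 and 1.49 times in the least enriched. Among the 20 most enriched, GGACT was in 7 peaks in both libraries and AGTCC in 14 and 13. A matching word is a description of the sequence and not a mapped methylated base.

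Folds in growing cells were compared with those after 3 days of differentiation in the 4989 symbols with a peak in all 4 lists. Their median highest fold was 6.12 and 5.41 in GM, against 5.03 and 5.57 after differentiation, so the ranges of both states overlapped, and an exact two-sided permutation test over the 4 libraries gave p = 0.67, where the smallest possible is 0.33. By limma on log2 folds, 0 symbols (0%) had a higher fold in GM, and 0 (0%) had a lower one, at a Benjamini-Hochberg adjusted p of 0.05, and the smallest adjusted p was 0.66. At an unadjusted p of 0.05, 176 symbols passed (3.53%), of which 103 had the larger fold in GM. The median standard error of the log2 difference was 0.49, so differences of single transcripts such as Gen1, Zfp408 or H6pd between states are values and not calls.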

How the data were processed

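RNA of C2C12 myoblasts was fragmented and immunoprecipitated with an m6A antibody, and IP and input libraries were sequenced (2 of each in GM and in 3d DM). Per the study's methods and processing notes the authors aligned reads to mm10 with HISAT2 2.1.0 and called peaks in each sample with exomePeak at P of at most 0.05. The deposited peak lists give, per peak, a fold (the ratio of IP over input, taken as deposited) and a p-value, and the deposited expression table gives a signal per Entrez gene that the authors normalised by TMM, for which the study names edgeR. The reads behind a fold and the depth of the libraries are unknown, so no counting interval is given, and 2 libraries per state limit the precision. A single gene entry took 24.4% and 33.2% of the GM column totals.

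Here the highest fold per symbol and list was used. Levels were matched through GENCODE M21 and RefSeq names (6373 of 6430 members) and a gene counted as expressed at a level of 25.1 units in both GM inputs. GM and 3d DM were compared with limma 3.58.1 (R 4.3.3, trend, Benjamini-Hochberg) on log2 folds over 4989 symbols. On simulated data of that comparison with 4989 symbols, 83 of 100 changes of 2 on the log2 scale and 100 of 100 changes of 4 were recovered, and 6 unchanged symbols were called. The simulated noise was normal, with each symbol's variance drawn toward the median, and it lacked the repeated values of the real folds. This recovery may not carry over to the data, where log2 differences of 2.89 (Gen1) and 2.65 (Zfp408) were not called. The other descriptions used Python 3.11.15 and pandas 2.3.3. Members, gene lists and tests were chosen with earlier results of these data known. Named are the 20 most and 15 least enriched members, the 2 highest and 2 lowest of each list (of which the text gives a part) and the genes of the m6A machinery and myogenic lists, of which 1 is not reported here. The authors' lists of peaks that differ between states were not used. The authors' counting of reads on repeats and by strand is not given in the sources used here.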

Additional observations from a re-analysis of the deposited data

How the results depend on the processing

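Alternatives were run for each result, and those on repeats, recurring values and bins were chosen after seeing the data. With the line of lowest P per symbol the median fold was 5.29 and 4.65 in GM replicates 1 and 2, and with the mean over lines 4.64 and 4.26. The SD of the log2 ratio between replicates was 0.76 with the lowest-P line, 0.69 with the mean and 0.71 with P of at most 1e-05. The 100 most enriched were the least stable result. Of them 66 stayed among the top 100 by the lowest-P line and 33 with either GM replicate left out. Filters kept 61 of the 100 with peaks of at most 20% repeat and 36 without recurring values of fold and P. By construction a kept member stays among the top 100, so these filter counts give what was removed and do not measure stability. The CDS share was 53.1% with single region labels (which by construction drops peaks on a boundary), 73.2% by the lowest-P line, 77.7% at P of at most 1e-05 and 78.0% with little repeat. The 3′ UTR share was 44.9%, 65.9%, 67.2% and 59.6%, and the 5′ UTR share 1.98% with single labels, 4.62% by the lowest-P line and 6.41% with little repeat. The fold ratio of the lowest to the highest level bin was 2.85 with level per kb and 1.61 without recurring values, and 1.88 to 2.01 with 1 GM replicate left out. Where no value shows it, the cause was not tested.

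Of 20 gene lists 8 lay above all members, and 7 to 10 did in the alternatives. The log2 difference changed sign for feedback inhibitors with little repeat (-0.036), TGF-beta and BMP by the mean over lines (-0.0094), the m6A machinery in bins of transcript length (-0.084) and, in bins of level, collagen and matrix (0.099) and splicing factors (0.046). The zinc finger, chromatin, ribosomal, oxidative phosphorylation, proteasome and glycolysis lists kept their side in all 10 alternatives. In the comparison of GM with 3d DM the count of calls was 0 in every alternative, also with the replicate number as a block (0 calls, 226 symbols at an unadjusted p of 0.05) and with any library left out. The replicates share only a number. The difference between replicates 1 and 2 in GM and that in 3d DM had a correlation of 0.12 across symbols, which does not establish pairs with 2 of them. The difference in median log2 fold, 0.12, ranged from 0.032 to 0.21 with 1 library left out.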
